A study of Homo sapiens with 8 samples.

Results

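The G1 cyclins and their kinases were followed here as 9 genes chosen by name: the D-type cyclins CCND1, CCND2 and CCND3, the E-type cyclins CCNE1 and CCNE2, the kinases CDK2, CDK4 and CDK6, and the phosphatase CDC25A. They are 9 of the 58884 genes in the deposited table, and each symbol matched 1 Ensembl identifier. C4-2, derived from LNCaP, is a human line of castration-resistant prostate cancer, and the cells were kept in RPMI 1640 with 10% FBS. Cells received 1 µM DTHIB, which the labels also call E12, or the solvent DMSO, and RNA was taken after 48 h. DTHIB is a compound described as a direct inhibitor of HSF1, the heat shock transcription factor. There were 4 libraries of polyadenylated RNA per group, from 1 line at 1 dose and 1 time, and no label tells whether each library came from its own culture. The p-values therefore stand only for the spread among the 8 libraries, which may be technical.

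Entry into S phase depends on these proteins. D-type cyclins bind CDK4 or CDK6, and the complexes start to phosphorylate the retinoblastoma protein, which releases E2F transcription factors. E2F factors activate the genes of the E-type cyclins and of CDC25A. Cyclin E then activates CDK2, once CDC25A has removed inhibitory phosphates from the kinase, and CDK2 completes the phosphorylation of the retinoblastoma protein. In prostate cancer cells, androgen signalling is known to act on the D-type cyclin step.

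The members lie on 7 chromosomes. Positions are those of GENCODE release 29 on GRCh38, and all 9 genes are protein coding. CCND1 lies at chr11:69641087-69654474 on the plus strand, CCND2 at chr12:4273772-4305350 on the plus strand, and CCND3 at chr6:41934933-42050357 on the minus strand. CCNE1 lies at chr19:29811898-29824308 on the plus strand, and its paralog CCNE2 on the minus strand of another chromosome. CDK2 at chr12:55966769-55972784 (plus strand) and CDK4 at chr12:57747727-57756013 (minus strand) share a chromosome with CCND2. CDK6 spans chr7:92604921-92836594 and CDC25A chr3:48157146-48188402, both on the minus strand.

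RefSeq promoter windows on GRCh38.p14 matched 5 of the 9 members, namely CCND3, CCNE1, CDK4, CDK6 and CDC25A. In the 250 bases before each start, both strands were searched for the letters of an E2F site (TTTGGCGC, TTTGCCGC, TTTCGCGC or TTTCCCGC), an E-box (CACGTG), a short heat shock element (GAANNTTC) and a CARE, the element read by ATF4 (TGATGNAA). No window held more than 1 kind of pattern, so no matches of different patterns overlapped. CDC25A held 1 E2F match, in capitals below, starting at position -44 from the gene start, and 2.79% of the 35116 RefSeq promoter windows of that length hold one. CCNE1 and CDK6, a cyclin that fell and the kinase that rose, are printed beside it. Neither window contained any of the 4 patterns, which says only that those letters are not in it. The window of CCNE1 and that of the first CDK6 promoter are printed only as far as the first base of an annotated exon.
CDC25A, chr3:48188418-48188667, minus strand: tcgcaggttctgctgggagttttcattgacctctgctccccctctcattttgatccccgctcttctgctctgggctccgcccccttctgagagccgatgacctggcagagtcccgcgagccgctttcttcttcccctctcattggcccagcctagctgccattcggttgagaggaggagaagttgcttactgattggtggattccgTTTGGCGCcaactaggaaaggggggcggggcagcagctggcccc
CCNE1, chr19:29811741-29811897, plus strand: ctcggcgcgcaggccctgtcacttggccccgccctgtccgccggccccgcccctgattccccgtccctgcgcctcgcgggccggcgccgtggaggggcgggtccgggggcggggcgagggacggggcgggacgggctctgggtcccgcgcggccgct
CDK6, chr7:92836595-92836823, minus strand: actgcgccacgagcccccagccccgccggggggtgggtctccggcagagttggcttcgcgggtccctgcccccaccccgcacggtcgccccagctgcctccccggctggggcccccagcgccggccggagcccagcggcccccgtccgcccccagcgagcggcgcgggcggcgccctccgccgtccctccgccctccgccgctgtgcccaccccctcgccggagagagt
The printed stretches are 250, 157 and 229 bases long. Over the whole 250-base windows, G and C made up 60.0% of CDC25A, 81.2% of CCNE1 and 80.0% of this CDK6 promoter. Among the other matched members, the CDK4 window held 3 E-boxes, at -216, -196 and -101, where 6.34% of windows hold at least 1. The second of 3 CCND3 promoters held 1 heat shock element, GAAAGTTC at -207, where 5.78% of windows hold one. No member's window held a CARE, which 3.14% of windows hold. A match of letters is a description of the window and was not tested for binding.

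Of the 9 members, 8 had a mean of at least 10 normalized counts over the 8 libraries and were tested among 17194 genes. A normalized count is a read number scaled by 1 factor per library, and a gene was said to have risen or fallen where the limma adjusted p was under 0.05. In DTHIB 6 of the 8 fell (CCND3, CCNE1, CCNE2, CDK2, CDK4 and CDC25A), 1 rose (CDK6) and CCND1 did not pass the test. Changes were common in these cells: of all tested genes 64.6% changed, 33.7% fell and 31.0% rose, so a share of 7 in 8 is read against that background. The median log2 fold change was -0.83 over the 8 members and -0.01 over all tested genes. The groups did not overlap for 7 of the 8 members, against 57.9% of tested genes, and CCND1 was the exception. A fall of at least 2-fold, a log2 fold change of -1 or less, was met by CCNE2 and CDC25A and by 4.36% of tested genes. In such bulk libraries, fewer cells in the phase that makes a transcript and less of it per cell cannot be told apart.

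**Figure D1:**
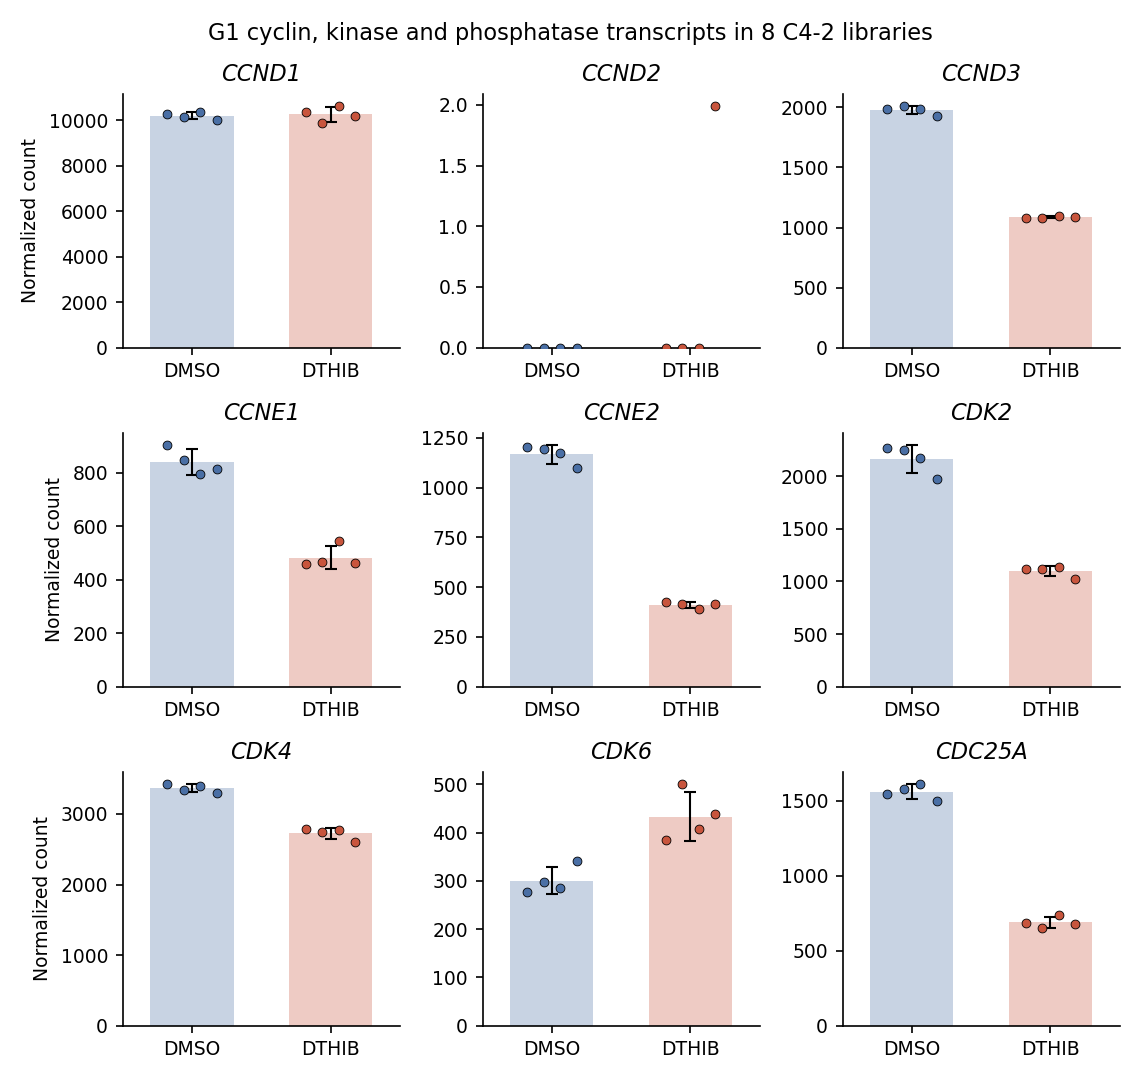
Normalized counts of the 9 genes (y axis, from 0, a separate scale in each panel) in the 4 DMSO and 4 DTHIB libraries; points are libraries, bars are group means and error bars are SD. The CCND1 points of the groups overlap, the CDK6 points are higher in DTHIB, CCND2 is at 0 in 7 of 8 libraries (points only), and the points of the other 6 genes are lower in DTHIB.

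Among the D-type cyclins, CCND3 fell, CCND1 did not pass the test and CCND2 was at or near 0. CCND1, the cyclin most often amplified in human cancers, had normalized counts of 10300.4, 10166, 10372 and 10018 in DMSO replicates 1 to 4. In DTHIB they were 10358, 9893, 10655 and 10183. The values of the groups are interleaved, and replicate 2 of DTHIB is the lowest and replicate 3 the highest of all 8. The mean went from 10214 ± 156 (SD, n = 4) to 10272 ± 319 (SD, n = 4), and the log2 fold change was 0.01 (SE 0.028, limma adjusted p = 0.823). Its 95% interval, -0.05 to 0.07, covers 0.964-fold to 1.05-fold. The sign turned without DMSO replicate 4 (-0.0015) and without DTHIB replicate 3 (-0.0100).

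CCND3, the D-type cyclin known for its role in lymphoid cells and in many differentiated tissues, had 1987, 2013, 1988 and 1931 normalized counts in DMSO. The DTHIB libraries had 1083, 1079.8, 1095 and 1091. Each DTHIB library was below every DMSO library, with a gap many times the spread within either group. The mean fell from 1980.0 ± 34.9 to 1087 ± 6.98 (SD, n = 4 each), which is -0.86 as a log2 fold change (SE 0.033, limma adjusted p = 5.80e-13) and a level 45.1% lower. The 4 DTHIB values have a coefficient of variation of 0.643%, under the 3.06% that counting error alone gives, so that SD understates the error of the mean. CCND2, the remaining D-type cyclin, had 0 reads in 7 libraries and 2 reads in DTHIB replicate 4. A count of 0 allows up to 3 reads per library, and CCND2 was too low to test or to give a fold. The pseudogenes CCND2P1, CCND3P1 and CCND3P2 had at most 2 reads in a library.

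Both E-type cyclins fell, with the larger log2 fold change in CCNE2. CCNE1, an activator of CDK2 at the G1 to S transition, had 906, 848, 797 and 814 normalized counts in DMSO and 457, 467, 545 and 464 in DTHIB. The groups were apart, and DTHIB replicate 3 lay above the other 3 DTHIB libraries. The mean fell from 841 ± 48.2 to 483 ± 41.5 (SD, n = 4 each), which is -0.80 as a log2 fold change (SE 0.061, limma adjusted p = 4.63e-09). CCNE2, its paralog with the same partner kinase, had 1205, 1197, 1173 and 1099 in DMSO and 426, 416, 391 and 414 in DTHIB. Here the DTHIB libraries were close to each other and far below the DMSO range. The mean fell from 1169 ± 48.2 to 412 ± 14.6 (SD, n = 4 each), which is -1.50 as a log2 fold change (SE 0.048, limma adjusted p = 5.30e-14). Ordered from the lowest log2 fold change, CCNE2 stood at rank 275 of 17194 tested genes. The 95% intervals, -0.93 to -0.67 for CCNE1 and -1.60 to -1.40 for CCNE2, did not overlap.

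CDC25A, the phosphatase that removes inhibitory phosphates from CDK2, fell with the E-type cyclins. Its normalized counts were 1547, 1579.9, 1615 and 1498 in DMSO and 686, 651, 740.0 and 677 in DTHIB. No DTHIB library came near the DMSO range. The mean fell from 1559.9 ± 49.8 to 689 ± 37.3 (SD, n = 4 each), which is -1.18 as a log2 fold change (SE 0.045, limma adjusted p = 5.04e-13) and rank 553 from the lowest of 17194. Of the 5 members with a promoter window, this is the one that held the letters of an E2F site. The windows of CCND3, CCNE1 and CDK4, which also fell, did not hold those letters, and a link to the falls was not tested.

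The 3 kinases moved by different amounts, and not all in the same direction. CDK2, the partner of cyclins E and A, had 2267, 2245, 2174 and 1971 normalized counts in DMSO and 1119, 1119, 1134 and 1026 in DTHIB. Replicate 4 was the lowest library of each group, yet the groups stayed far apart. The mean fell from 2164 ± 135 to 1100 ± 49.3 (SD, n = 4 each), which is -0.98 as a log2 fold change (SE 0.046, limma adjusted p = 9.71e-12). CDK4, a partner of the D-type cyclins, had 3431, 3339.8, 3402 and 3301 in DMSO and 2784, 2739, 2771 and 2604 in DTHIB. These groups did not overlap either, but the step was smaller, 19.1% in place of 49.2% for CDK2. The mean of CDK4 fell from 3368 ± 58.8 to 2725 ± 82.5 (SD, n = 4 each), which is -0.31 as a log2 fold change (SE 0.031, limma adjusted p = 1.97e-07).

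CDK6, the other partner of the D-type cyclins, was the 1 member that rose, and it had the lowest level per kilobase of the tested 8. It had 278, 299, 286 and 341 normalized counts in DMSO and 384, 501, 406 and 439 in DTHIB. The closest libraries were DMSO replicate 4 at 341 and DTHIB replicate 1 at 384, so the groups were apart by less than the range within DTHIB. The mean rose from 301 ± 28.0 to 433 ± 50.9 (SD, n = 4 each), which is 0.52 as a log2 fold change (SE 0.083, limma adjusted p = 3.45e-05). Of all tested genes, called or not, 14.2% had a log2 fold change at or above that of CDK6. Its DTHIB libraries varied by 11.8%, above the 4.85% of counting error, and leaving out 1 library at a time gave 0.45 to 0.58.

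**Figure D2:**
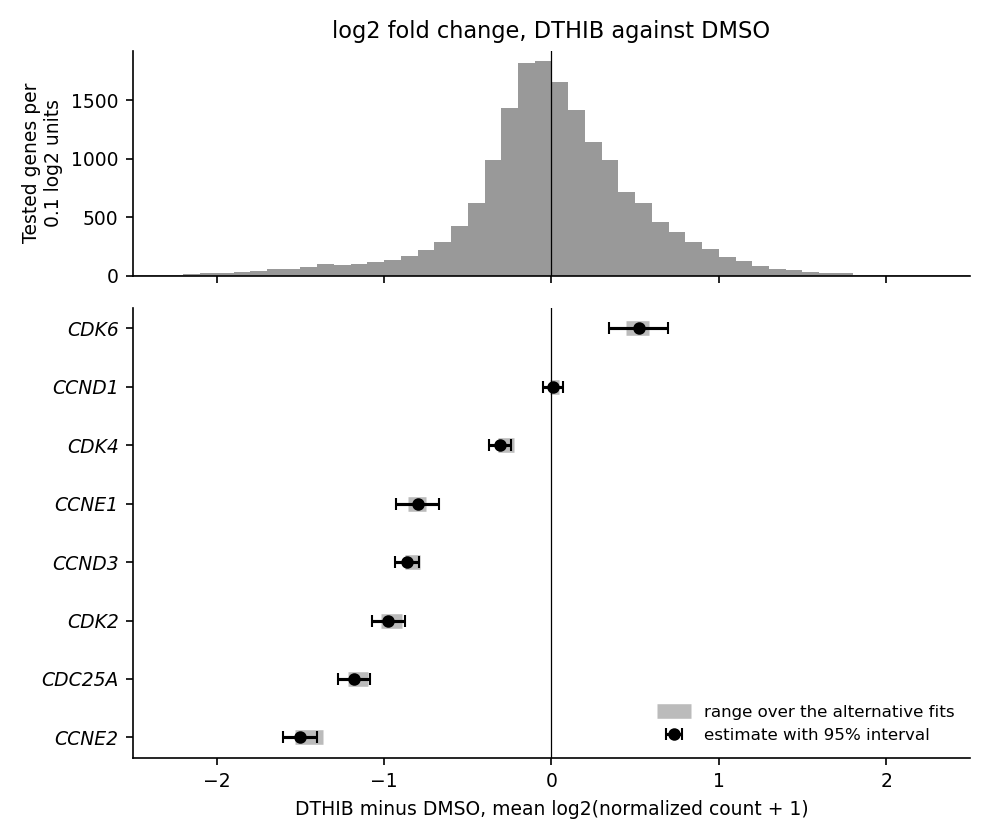
Upper panel: number of tested genes in each step of 0.1 log2 units (29 of 17194 lie beyond 2.5 in either direction and are not drawn). Lower panel: log2 fold change of the 8 tested members with its 95% interval (black) and the range over the alternative fits (grey); CCNE2 at -1.50 is lowest, CCND1 at 0.01 spans 0, and CDK6 at 0.52 is the only member above it.

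The authors' deposited table of the same comparison, a DESeq2 result, gives log2 fold changes of -0.86 for CCND3, -0.79 for CCNE1, -1.49 for CCNE2, -0.97 for CDK2, -0.31 for CDK4, 0.51 for CDK6 and -1.17 for CDC25A. For CCND1 the authors' deposited table gives 0.01 with an adjusted p of 0.856. For CCND2 it gives no adjusted p.

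Reads of some members may include those of a gene on the opposite strand, since no strand setting is given in the sources used here. Such exons cover 43.2% of the merged exons of CDK4 (TSPAN31), 37.0% of CCNE2 (INTS8) and 10.3% of CCND1 (LTO1). For CDK2 they cover 14.5% (AC025162.1, which had 0 reads) and 2.29% (PMEL). TSPAN31 rose from 586 ± 19.4 to 957 ± 53.5 normalized counts (log2 fold change 0.71, limma adjusted p = 1.42e-09) while CDK4 beside it fell. LTO1 rose from 480.0 ± 35.7 to 664 ± 34.5, next to CCND1, and INTS8 fell from 2468 ± 24.9 to 2051 ± 67.6, next to CCNE2. Reads from the strands cannot be told apart here where the exons overlap, and whether such reads were counted or left out is not given. Their effect on the counts of CDK4, CCNE2, CCND1 or CDK2, and on the levels per kilobase and ratios below, was not tested.

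Divided by the length of the merged exons, the members ranked as follows in DMSO, in normalized counts per kilobase. CCND1 was highest at 2115 ± 32.3, then CDK4 at 1063 ± 18.6, and CDK2 at 556 ± 34.6 (SD, n = 4 for each level here). CDC25A stood at 379, over a range of 364 to 392. CCND3 at 341 ± 6.01 and CCNE1 at 330 ± 18.9 were next, and their ranges overlapped. CCNE2 at 266 ± 11.0 and CDK6 at 24.5 ± 2.29 were lowest apart from CCND2. In DTHIB the upper 3 places were the same, with CCND1 at 2127 ± 66.1, CDK4 at 860.1 ± 26.0 and CDK2 at 282 ± 12.7. Then CCNE1 (190 ± 16.3) and CCND3 (187 ± 1.20) overlapped. CDC25A (167 ± 9.05) came next, below every CCND3 library but with a range that overlapped that of CCNE1. CCNE2 at 93.7 ± 3.32 and CDK6 at 35.3 ± 4.15 came last. The place of CCND3 rests on its length: with the 2.085 kb of its principal transcript in place of 5.802 kb of merged exons it came next after CCND1 and CDK4 in both groups, at 949.6 ± 16.7 in DMSO, where its range overlapped that of CDK2, and 521 ± 3.35 in DTHIB.

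Sums over paralogs show how the composition of each pair differed between the groups, as descriptions without a test. The summed D-type cyclin level was 2456 ± 36.3 normalized counts per kilobase of merged exons in DMSO and 2314 ± 66.9 in DTHIB. By principal transcripts the step was larger, from 3321 ± 48.3 in DMSO to 2906 ± 76.6 in DTHIB. CCND3 made up 13.9 ± 0.176% of the merged-exon sum in DMSO and 8.10 ± 0.199% in DTHIB, or 28.6% and 17.9% by principal transcripts. CCND1 made up nearly all of the rest. The summed E-type level was 596 ± 27.0 in DMSO and 283 ± 13.1 in DTHIB, and the share of CCNE1 in it 55.4 ± 1.13% and 66.8 ± 2.55%. The ratio of CCNE1 to CCNE2 was 1.24 ± 0.057 in DMSO and 2.03 ± 0.251 in DTHIB, without overlap. CDK4 and CDK6 together stood at 1088 ± 16.5 and 895 ± 25.1, and CDK6 was a minor part, 2.26 ± 0.243% and 3.95 ± 0.488%.

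Ratios of transcript levels between D-type and E-type cyclins, and between CDK4 and CDK2, differed between the groups as well, again as descriptions without a test. The summed D-type level was 4.13 ± 0.166 times the summed E-type level in DMSO, over a range of 3.93 to 4.30. In DTHIB it was 8.18 ± 0.244 times, over a range of 7.91 to 8.44, so every DTHIB library lay above every DMSO library. By principal transcripts these ratios were 4.36 and 8.07. CDK4 stood at 1.92 ± 0.102 times CDK2 in DMSO and 3.05 ± 0.053 times in DTHIB. In contrast, the summed E-type level was 1.07 ± 0.039 times CDK2 in DMSO and 1.00 ± 0.046 times in DTHIB, with overlapping ranges. By principal transcripts this last ratio was 0.81 in DMSO and 0.75 in DTHIB, and that of CDK4 to CDK2 was 1.73 and 2.74.

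**Figure D3:**
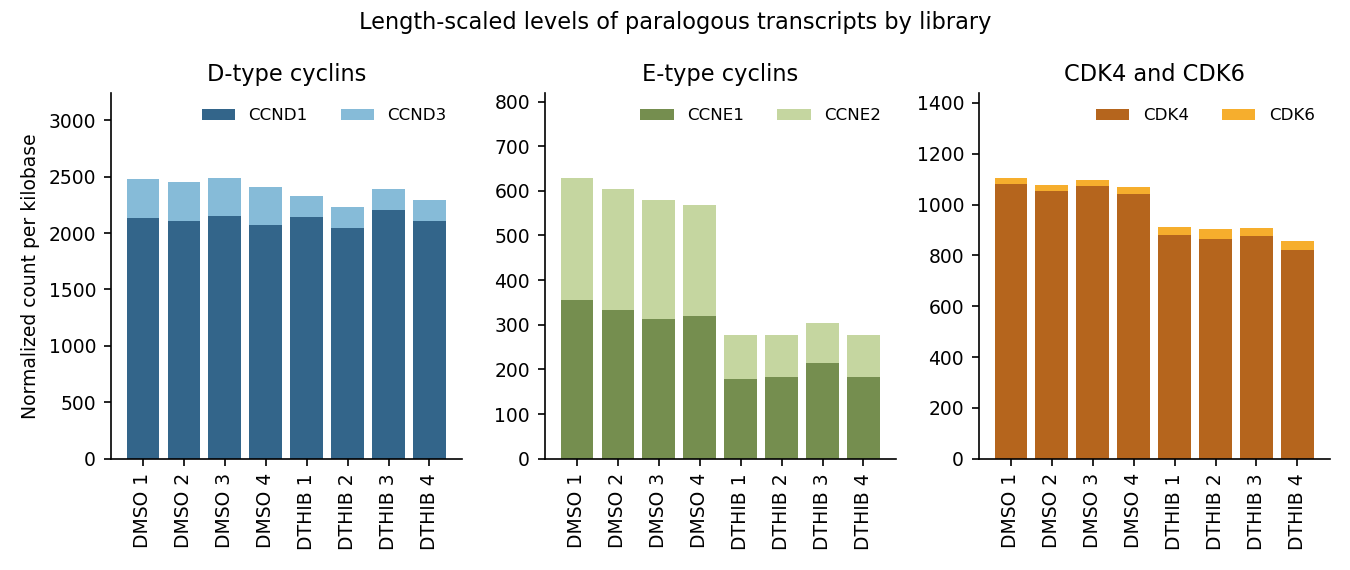
Normalized counts per kilobase of merged exons (y axis, from 0) in each of the 8 libraries, stacked for CCND1 and CCND3, for CCNE1 and CCNE2, and for CDK4 and CDK6. The D-type stack is 2456 on average in DMSO and 2314 in DTHIB, the E-type stack 596 and 283, and CDK6 is a thin band on CDK4 in all 8 libraries.

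Other genes, tied to these complexes by function or by family, were taken from 6 lists holding 56 genes. Of these, 55 were tested: 38 fell, 8 rose and 9 did not pass the test. Over all 17194 tested genes 33.7% fell and 31.0% rose, and the counts of each list below are read beside those shares. The list of S and M phase cyclins with CDK1 had the lowest median, -1.53. The transcription cyclins and kinases, grouped here for their part in transcription, had a median of -0.01. The members' median of -0.83 lay between them.

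Of 7 CDK inhibitor genes 5 fell and 2 did not pass (CDKN1C at -0.43 and CDKN2B at 0.11), with a median of -0.39. CDKN2C, which encodes an INK4 protein that binds CDK4 and CDK6, fell most, from 1683 ± 71.8 to 638 ± 53.0 normalized counts (log2 fold change -1.40). CDKN1A, which encodes p21, fell from 1981 ± 61.1 to 1510.3 ± 83.2 (-0.39), and CDKN1B, which encodes p27, from 3129 ± 92.2 to 2625 ± 97.1 (-0.25). CDKN2D fell by 0.62 on the log2 scale.

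Of 13 genes of the retinoblastoma family, E2F factors and DP partners, 9 fell, 2 rose and 2 did not pass, with a median of -0.46. E2F1, an activator of CCNE1, CCNE2 and CDC25A by textbook knowledge, fell from 3464 ± 146 to 990.0 ± 25.3 normalized counts (log2 fold change -1.81). E2F2, E2F7 and E2F8, for which no such role is stated here, also fell, with log2 fold changes of -1.63, -1.81 and -1.80. The remaining falls were smaller: RBL1 (-1.16), TFDP1 (-0.59), RB1 (-0.46), E2F3 (-0.37) and E2F6 (-0.34). The risers were E2F5 (0.42) and RBL2 (0.11), and E2F4 (0.02) and TFDP2 (-0.07) did not pass. E2F4 did pass under quantile normalization (0.12), and TFDP2 with a length and GC trend removed (-0.12) and without DTHIB replicate 3 (-0.096).

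Among 7 genes of the CDK-activating kinase, the other CDC25 phosphatases and the kinases that place the inhibitory phosphates, 5 fell, 1 rose and 1 did not pass, with a median of -0.96. CDC25B fell from 2332 ± 79.8 to 1099 ± 98.9 normalized counts (log2 fold change -1.09) and CDC25C from 523 ± 45.7 to 188 ± 24.1 (-1.48), so all 3 CDC25 genes were lower. The opposing kinases fell too: WEE1 from 1856 ± 61.8 to 953 ± 79.7 (-0.96) and PKMYT1 from 1722 ± 93.3 to 493 ± 49.5 (-1.81). CCNH, the cyclin of the activating kinase, rose by 0.34. Its kinase CDK7 did not pass the test, and 1 library sets its value: DMSO replicate 3 had 217 normalized counts and the other 7 libraries 11.0 to 21.9. CDK7 had a log2 fold change of -0.84 with all libraries (limma adjusted p = 0.251) and 0.12 without that one, and edgeR with all libraries gave -2.01 (adjusted p = 0.0396).

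Of 10 parts of the ubiquitin ligases that degrade G1 cyclins and their inhibitors, 9 fell and FBXW7, which recognises cyclin E, did not pass (-0.03). CKS1B and SKP2, which act together on p27, fell with log2 fold changes of -1.16 and -0.72, and CUL3 and CUL1 with -0.36 and -0.35. The median of this list was -0.18. Of 6 S and M phase genes 5 were tested, and 4 fell: CCNA2 from 2843 ± 136 to 750.0 ± 67.2 (-1.92), CDK1 from 15207 ± 789 to 4576 ± 481 (-1.74), CCNB2 (-1.53) and CCNB1 (-1.41). Each of these 4 falls exceeded that of CDC25A, and CCNE2 lay among them. CCNB3 did not pass (0.11).

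Of 13 transcription cyclins and kinases 5 rose, 6 fell and 2 did not pass, CDK12 (0.03) and CDK13 (-0.01). Over all tested genes 31.0% rose and 33.7% fell. CDK12 did pass under quantile normalization (0.11), and CDK13 with the length and GC trend removed (-0.17). CCNL2 and CCNL1, partners of CDK11, rose by 0.80 and 0.54, CDK9 by 0.13 and CCNT2 by 0.11. The fifth, CDK11A (0.53), is uncertain, because reads may be shared with its near-identical copy CDK11B, and it did not pass without DMSO replicate 3 (0.43) or DTHIB replicate 2 (0.38). CDK8 fell with a log2 fold change of -0.33 and CCNT1 with -0.20. No gene of this list fell by 1 or more on that scale.

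**Figure D4:**
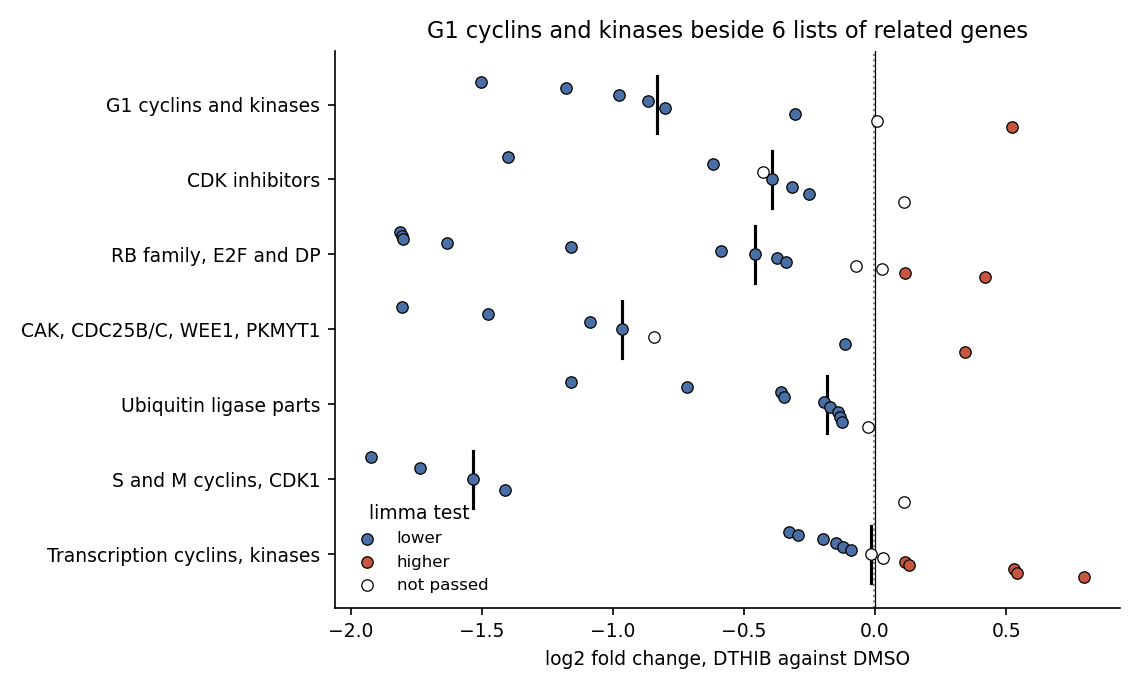
log2 fold change (x axis) of each tested gene in the 8 G1 members (top row) and 6 other lists; each point is a gene, coloured by the limma call, black bars are list medians and the dotted line is the median of all tested genes. The S and M phase list lies lowest (median -1.53), the members' median is -0.83, and the transcription list is spread about 0 (median -0.01).

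The profile over the 8 libraries, centred on each gene's mean, was compared between the member with the largest rise or fall and 11642 other genes with a mean of at least 100. Nearest to CDK6 were NPEPL1, LAMA3 and CUL9, at Euclidean distances of 0.15, 0.16 and 0.16 log2 units, with log2 fold changes of 0.54, 0.55 and 0.55. Nearest to CCNE2 were ASS1P13, C18orf54 and DSN1, at 0.17, 0.18 and 0.19, with log2 fold changes of -1.44, -1.57 and -1.54. ASS1P13 is a pseudogene whose reads may come from its parent gene. The points share the libraries and the group difference, so likeness of profile is a description.

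The line was checked against cell type markers. All 8 luminal epithelial markers had a mean of at least 10, and their summed level was 174435 to 176309 normalized counts in DMSO and 219779 to 222243 in DTHIB. Of 3 basal markers only KRT14 reached that mean (sums of 16.3 to 31.8 and 17.0 to 26.1), with KRT5 and TP63 near 0. Stromal sums, carried by COL1A1 and ACTA2 of 5 markers, were 979 to 1089 and 1216 to 1456, with DCN and LUM near 0. Of 5 blood cell markers, LYZ and CD68 reached the mean, with PTPRC at or under 3.00 and sums of 28.0 to 43.1 and 23.9 to 41.9. Neuroendocrine sums, carried by SYP of 4 markers, were 52.1 to 67.0 and 76.1 to 89.9, with INSM1 at 0. The luminal, stromal and neuroendocrine sums were higher in DTHIB, though not every marker in them. Means in DMSO and DTHIB of the luminal markers HOXB13 (10595 and 9137), KRT8 (13068 and 10269.8) and KRT18 (8271 and 7665) were lower in DTHIB, and those of the other 5 higher. COL1A1 (962 and 1289.9) carried the stromal sum, while ACTA2 (77.6 and 39.0) was lower in DTHIB. The part of these markers in the results above was not tested. Library totals ran from 27229291 to 30926053 reads, and all 4 DTHIB totals were below all 4 DMSO totals.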

How the data were processed

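Polyadenylated RNA of 8 C4-2 libraries was sequenced, 4 with DMSO and 4 with 1 µM DTHIB for 48 h, and the labels' treatment field set the groups. Per the submitters' processing notes, the build was GRCh38 and the tools were DESeq2 2.11.40.2, featureCounts 1.6.3, StringTie 1.3.4, HISAT2 2.1.0 and Trimmomatic 0.36.5. For their order and settings, annotation release and strand setting: not given in the sources used here. The authors deposited 1 signal per gene and library, by its name a DESeq2-normalized count. The authors also deposited a DESeq2 table with the mean signal, the log2 fold change and its error, a Wald score, and a raw and an adjusted p-value. Its log2 fold changes had the sign of DTHIB minus DMSO for 99.96% of genes with a mean of at least 10.

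Signals were whole multiples of 1 step per library (100% of values within a tolerance of 0.01), which gave whole reads and library totals of 27229291 to 30926053. On those reads edgeR 4.0.16 called 11130 genes and DESeq2 1.42.0 called 10283, as alternatives. Of 58884 identifiers 41967 had a symbol and 58611 a GENCODE release 29 model, and all 8 columns of samples were used. A chi-square per gene of 2.39 to 5.19 within groups (51.9 to 70.0 between them) showed no library deposited more than once.

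The log2(normalized count + 1) of 17194 genes with a mean of at least 10 was fitted with limma 3.58.1 in R 4.3.3 (eBayes with an expression trend, two-sided, no covariates), with Benjamini-Hochberg adjustment over all of them. The procedure was also run on simulated counts in which far fewer genes changed than here, so that run does not measure its error in these data. Fold changes on this scale understate the change of low genes. Levels per kilobase used the merged exons of GENCODE release 29. Intervals are 95% intervals of limma, and counting error and floors of 3 reads cover counting only.

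The named genes are the 9 members, up to 4 genes of each other list with the smallest adjusted p, and the 3 genes nearest in profile to the member with the largest rise and the largest fall. The members and lists were chosen with earlier results of these data known. CDK7, CCNH, RBL2, E2F4, E2F5, TFDP2, CDKN1C, CDKN2B, FBXW7, CCNB3, CDK9, CDK11A, CDK12, CDK13, CCNT2 and the overlapping genes were named once their values had been seen. So were RB1, RBL1, E2F3, E2F6 and TFDP1, whose values with a library left out are not given. The alternatives were TMM and quantile scaling, pseudocounts of 0.5 and 5, a minimum mean of 50 or none, edgeR, DESeq2, the replicate number as a block and each library left out. Added after seeing the data were a removed trend with length and GC content and the length of the principal transcript.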

Additional observations from a re-analysis of the deposited data

Results flagged for a closer look

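In 7 of 112 groups of 4 libraries examined, each a named gene in 1 treatment, a single library stood apart from the other 3 by Dixon's criterion, and chance gives about 1 in 20. The ratio given is the gap to the nearest library over the whole range. Of the G1 genes, CCNE1 in DTHIB had a ratio of 0.892, from 545 normalized counts in replicate 3 and 467 in the nearest library, and its log2 fold change without that library was -0.86. CDK2 in DTHIB had a ratio of 0.865, from 1026 in replicate 4 and 1119 in the nearest, and -0.94 without it. E2F1 in DTHIB had 0.841 (replicate 3 at 1028, nearest 982, and -1.82 without it). CUL9 in DMSO had 0.926 (replicate 4 at 1233, nearest 1140.4, and 0.58 without it). CDK7 in DMSO had 0.974 (replicate 3 at 217, nearest 16.3, and 0.12 without it). RBL2 in DMSO had 0.854 (replicate 3 at 3358, nearest 3205), and E2F4 in DMSO had 0.906 (replicate 2 at 1678, nearest 1707). Except for CDK7, leaving the library out kept the direction and the call of the gene.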

How the results depend on the processing

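The same count of 7 members changed, 1 higher and 6 lower, under all alternatives run. The count over all genes was 11110, with 9483 to 11557 over the alternatives (10367 to 10893 with a library left out), and of the 55 tested genes of the 6 other lists 46 changed, with 40 to 47 (43 to 46 with a library left out). With the replicate number as a block, 7 members, 46 other genes and 11058 genes of all changed. Deviations of libraries with the same number correlated at -0.072 to 0.014 and those with different numbers at up to 0.084. Not every library correlated best with its own number. These values show no pairing by number, but they cannot tell whether libraries shared a batch or a culture. The sign of CCND1 turned without DMSO replicate 4 (-0.0015) and DTHIB replicate 3 (-0.0100), over -0.0100 to 0.026 with a library left out, and the lowest adjusted p for CCND1 over all alternatives was 0.0917, with limma after quantile normalization. Of 144 values for the tested members under alternatives, the other 142 kept direction and call. Signs also turned for genes that had not passed the test. Under quantile normalization TFDP2 was 0.012, CDKN2B -0.0066, FBXW7 0.0052, CCNB3 -0.00079 and CDK13 0.077. CDK13 was 0.00031 with TMM, 0.00097 with edgeR, 0.0014 with DESeq2 and 0.0090 without DTHIB replicate 1. CDK12 was -0.00088 with the length and GC trend removed, CDKN2B -0.042 without DTHIB replicate 4, and FBXW7 and CDK7 were 0.0013 and 0.12 without DMSO replicate 3. With a library left out CDK7 ran from -1.27 to 0.12, CDKN2B from -0.042 to 0.37, FBXW7 from -0.063 to 0.0013 and CDK13 from -0.025 to 0.0090. Genes that had not passed did so under these alternatives: TFDP2 (-0.12) and CDK13 (-0.17) with the length and GC trend removed, E2F4 (0.12) and CDK12 (0.11) under quantile normalization, TFDP2 without DTHIB replicate 3 (-0.096) and CDK7 with edgeR (-2.01). The cause was not tested. By the length of the principal transcript, levels per kilobase in DMSO and DTHIB were 2372 and 2385 for CCND1, 949.6 and 521 for CCND3, 412 and 237 for CCNE1, and 351 and 124 for CCNE2. They were 943 and 479 for CDK2, 1622 and 1312 for CDK4, and 412 and 182 for CDC25A. The construction of that alternative, a shorter length, sets these moves. Depth limits CCND2, at 0 to 2 reads. For CDK6 the counting error was 5.68% in DMSO and 4.85% in DTHIB, below its variation among libraries of 9.33% and 11.8%.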

Other observations

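Libraries differed in how often they were the extreme of their group. DMSO replicate 4 was the lowest DMSO library for 6 of the 8 tested members, against 28.8% of all tested genes and 37.5% of the genes that fell. DTHIB replicate 2 was the lowest DTHIB library for 3 of the 8 members, against 30.4% of tested genes and 43.0% of those that fell, and DTHIB replicate 3 was the highest for 5, against 29.5% of tested genes. These are values of single libraries, and their part in the results was not tested.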
